A study of Mus musculus with 9 samples.

Results

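Zfpm2, Tcerg1l, Rprm, Sla and Ntsr1 are 5 of the 24624 genes in a table of normalized expression from newborn mouse cortex. Here the 5 are grouped as genes of corticothalamic neurons of layer 6, which the study does not do for Tcerg1l. They were chosen by name, with their levels in the genotypes of the same study already known, so their differences between genotypes are given as a description with no test. The study asked what the transcription factor FEZF2 does in the projection neurons of the deep cortical layers. RNA was taken from the pair of cortical hemispheres of each P0 mouse (postnatal day 0), and polyadenylated RNA was sequenced in bulk. There were 3 wild type (Fezf2+/+) libraries, 4 Fezf2-/- libraries and 2 Fezf2-/-; Fezf2-EnR libraries, each from 1 mouse. The mice came from 3 litters, named m1, m2 and m3, and the sex of the pups is not used here. Both mutant groups carried 2 null Fezf2 alleles in every cell of the body, and these alleles hold a PLAP (human placental alkaline phosphatase) reporter. The Fezf2-EnR group had, in addition, a BAC transgene that places a fusion of the engrailed repressor domain and the FEZF2 DNA-binding domain under the Fezf2 regulatory region, so it is expressed where Fezf2 normally is.

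Corticothalamic neurons are the main output cells of cortical layer 6. They send axons to the thalamus and feed back onto the relay nuclei from which the cortex receives its sensory input. Fezf2 is expressed in deep-layer neurons and is known for its role in forming subcerebral neurons of layer 5 and corticothalamic neurons of layer 6. The 5 genes do unlike things in the cell. Zfpm2 (also called FOG2) encodes a zinc-finger cofactor of GATA transcription factors, and Tcerg1l encodes a protein related to a regulator of transcription elongation. Rprm encodes Reprimo, a small protein that can arrest the cell cycle. Sla encodes the Src-like adaptor, which damps receptor signalling in lymphocytes, and Ntsr1 encodes a receptor for the peptide neurotensin. The regulatory sequence of Ntsr1 is widely used to drive Cre in corticothalamic neurons. In the study's own grouping Tcerg1l was placed with the subcerebral genes of layer 5 and not with the corticothalamic ones. Its in situ hybridization showed less Tcerg1l in Fezf2-/- cortex, and expression restored in layer 5 with Fezf2-EnR. RNA of a whole cortex cannot place a transcript in a layer, so the label was not tested for single cells.

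By GENCODE M21 (GRCm38), the build that the submitters' processing notes name as mm10, Zfpm2 (ENSMUSG00000022306.9) lies at chr15:40655035-41104592 on the + strand and Sla (ENSMUSG00000022372.14) at chr15:66780819-66831829 on the - strand. Rprm (ENSMUSG00000075334.2) lies at chr2:54084093-54085552 on the - strand and Ntsr1 (ENSMUSG00000027568.9) at chr2:180499976-180544980 on the + strand. Tcerg1l (ENSMUSG00000091002.2) lies at chr7:138208974-138397730 on the - strand. Sla lies inside Tg, the thyroglobulin gene, on the opposite strand. The 2 genes share 0 exon bases, and Tg had values between 2.11 and 11.1 in the 9 libraries against 4167 or more for Sla, so reads of Tg could add little to Sla.

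The 250 bases before the annotated start are shown for Tcerg1l, Rprm and Ntsr1, the 3 of 5 genes found in the promoter table, so that these regions can be read side by side. Whether they bear on the levels of the genes was not tested. They come from RefSeq (GRCm38.p6) and are written 5′ to 3′ on the strand of the gene, with each GC box (GGGCGG or its reverse complement) in capitals. They lie at chr7:138397731-138397980 for Tcerg1l, chr2:54085553-54085802 for Rprm and chr2:180499726-180499975 for Ntsr1.
Tcerg1l: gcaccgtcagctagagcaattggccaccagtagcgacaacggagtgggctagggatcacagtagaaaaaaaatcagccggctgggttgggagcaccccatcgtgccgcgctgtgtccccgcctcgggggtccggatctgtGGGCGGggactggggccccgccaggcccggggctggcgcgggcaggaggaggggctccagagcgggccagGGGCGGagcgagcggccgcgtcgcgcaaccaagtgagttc
Rprm: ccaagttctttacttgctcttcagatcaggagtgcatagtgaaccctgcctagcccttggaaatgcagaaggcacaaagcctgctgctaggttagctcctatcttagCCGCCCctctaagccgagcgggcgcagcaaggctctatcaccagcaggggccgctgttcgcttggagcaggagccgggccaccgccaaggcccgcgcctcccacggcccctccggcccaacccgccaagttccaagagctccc
Ntsr1: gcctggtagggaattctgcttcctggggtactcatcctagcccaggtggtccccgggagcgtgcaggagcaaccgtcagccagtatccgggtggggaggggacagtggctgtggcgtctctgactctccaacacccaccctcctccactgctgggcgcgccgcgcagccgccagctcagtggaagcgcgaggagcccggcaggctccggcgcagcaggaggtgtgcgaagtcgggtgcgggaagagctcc
The Tcerg1l stretch held 2 GC boxes, that of Rprm held 1 and that of Ntsr1 held 0, and a GC box was found in 32.7% of the 32851 upstream stretches of the same length in the table. G and C made up 69.6% of the bases in Tcerg1l, 62.4% in Rprm and 68.4% in Ntsr1, against a median of 52.4% over all stretches. CG pairs numbered 23, 13 and 18 in the same order, against a median of 6. The letters CCAAT, on either strand, occurred 1 time in Tcerg1l and 0 times in the other 2 stretches, and 33.8% of all stretches hold them. On either strand, none of the 3 stretches held the TATA box letters TATAAA, which 12.4% of all stretches hold. The T-box core GGTGTGA, present in 3.33% of all stretches, and the SOX core ACAAT, present in 27.7%, were not among their letters either.

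The deposited values are read counts divided by a size factor of the library, and summed to between 20097781 and 21058156 per library. Whole reads could be recovered from them, and numbered between 18716575 and 25127623 per library. Fezf2 itself, which checks the labels, had normalized counts of 1232, 1010 and 979 in wild type, of 223, 193, 242 and 209 in Fezf2-/- and of 907 and 1001 in Fezf2-/-; Fezf2-EnR. The table does not separate transcripts of the null alleles from those of the transgene. Differences were estimated on log2(value + 1) with limma. The 16197 genes that averaged 10 or more over the 9 libraries were tested, and a gene was called at a Benjamini-Hochberg adjusted p under 0.05. On this scale the change of genes with low values is understated. All 5 genes passed the filter in every genotype, the lowest group mean being 174 for Zfpm2 in Fezf2-/-. Reads per library were between 147 and 796 for Zfpm2 and between 155 and 1038 for Tcerg1l, which gives a counting error of up to 8.25% and 8.03%. They were between 1622 and 2353 for Ntsr1, between 1820 and 3719 for Rprm and between 4149 and 10202 for Sla, with a counting error of at most 2.48%.

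Zfpm2 and Tcerg1l had the lowest levels in Fezf2-/- relative to wild type. Zfpm2 had normalized counts of 672.5, 505 and 444 in wild type, of 148, 182, 186 and 180 in Fezf2-/-, and of 524 and 624 in Fezf2-/-; Fezf2-EnR. All 4 Fezf2-/- libraries lay far below every other library, while both Fezf2-/-; Fezf2-EnR libraries lay within the range of wild type. The mean was 540 ± 118 (SD, n = 3) in wild type and 174 ± 17.6 (SD, n = 4) in Fezf2-/-, or 32.2% of wild type. With the transgene it was 574 ± 70.9 (SD, n = 2). The wild type libraries were the most spread of the 3 groups for this gene, with a coefficient of variation of 21.9%.

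Tcerg1l had normalized counts of 877, 829 and 750 in wild type, of 197, 182, 162 and 168 in Fezf2-/-, and of 700 and 765 in Fezf2-/-; Fezf2-EnR. Again no Fezf2-/- library came near the others. With the transgene, 1 library lay inside the range of wild type and the other just under it. Wild type averaged 819 ± 63.9 (SD, n = 3). Fezf2-/- averaged 177 ± 15.7 (SD, n = 4), or 21.6% of wild type, and the transgenic mice 732 ± 45.9 (SD, n = 2), or 89.4%.

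**Figure D1:**
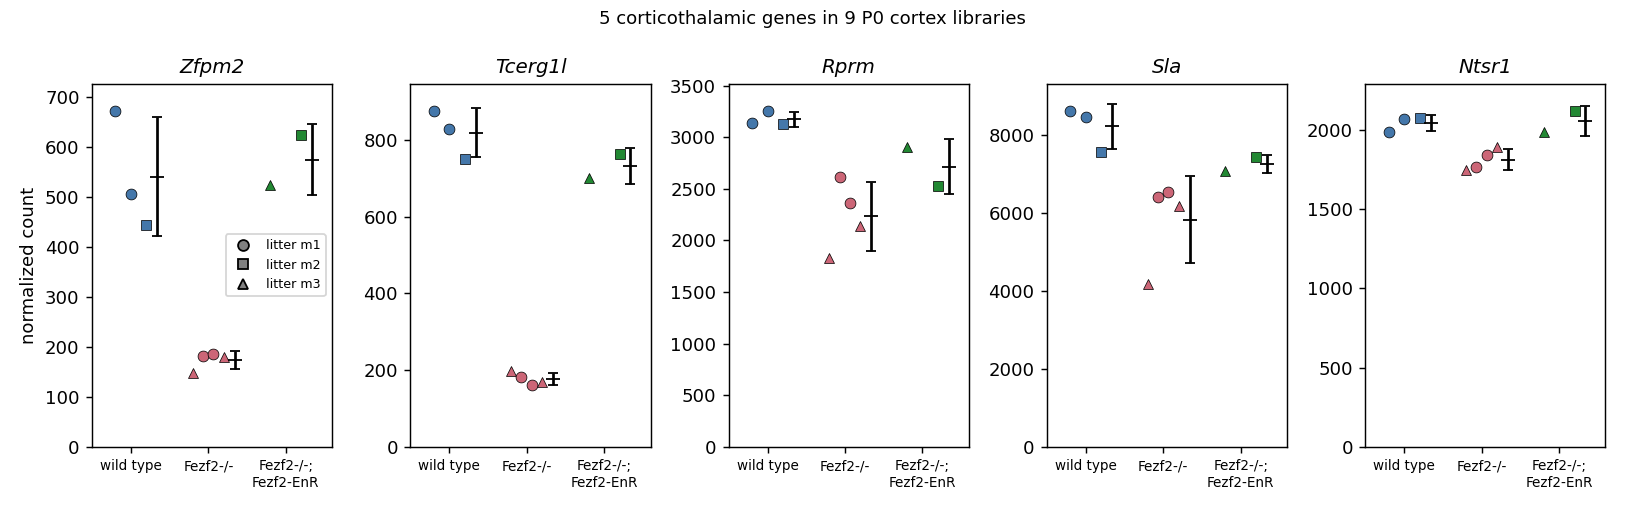
Normalized counts of Zfpm2, Tcerg1l, Rprm, Sla and Ntsr1 (linear axes from 0) in each library by genotype, with 1 point per mouse, the marker shape giving the litter and the black bar the mean ± SD of the group. In each panel all 4 Fezf2-/- libraries lie below the 3 wild type libraries, by a wide margin for Zfpm2 and Tcerg1l and by a narrow one for Ntsr1.

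For Rprm, Sla and Ntsr1 the Fezf2-/- group again had the lowest mean, by smaller distances. Rprm had normalized counts of 3142, 3259 and 3128 in wild type, of 1828, 2615, 2362 and 2138 in Fezf2-/-, and of 2901 and 2527 in Fezf2-/-; Fezf2-EnR. Both transgenic libraries were under every wild type library, and 1 of them lay within the range of Fezf2-/-. From 3176 ± 72.1 (SD, n = 3) in wild type, the mean went to 2236 ± 335 (SD, n = 4) in Fezf2-/-, or 70.4%, and to 2714 ± 264 (SD, n = 2) with the transgene, or 85.4%.

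Sla had the highest values of the 5 genes, with normalized counts of 8619, 8448 and 7563 in wild type, of 4167, 6414, 6542 and 6168 in Fezf2-/-, and of 7079 and 7417 in Fezf2-/-; Fezf2-EnR. One Fezf2-/- library, bc204, stood well below the other 3. The transgenic libraries fell between the groups, above every Fezf2-/- and under every wild type library. Means were 8210 ± 567 (SD, n = 3) for wild type, 5823 ± 1115 (SD, n = 4) for Fezf2-/- and 7248 ± 239 (SD, n = 2) for the transgenic mice. Without bc204 the Fezf2-/- mean was 6374 ± 190 (SD, n = 3), which is 77.6% of wild type against 70.9% with it. For microglia, the immune cells of the brain, 7 marker genes summed to between 900 and 1031 in wild type, between 956 and 1139 in Fezf2-/- and between 1050 and 1066 in Fezf2-/-; Fezf2-EnR. The Fezf2-/- range overlapped both others, while both transgenic libraries lay above wild type. The part of microglia in the Sla values was not tested.

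Ntsr1 differed least. Its normalized counts were 1988, 2074 and 2078 in wild type, 1751, 1767, 1846 and 1892 in Fezf2-/-, and 1988 and 2124 in Fezf2-/-; Fezf2-EnR. The Fezf2-/- libraries still did not reach any of the other 5. The mean was 2047 ± 50.9 (SD, n = 3) in wild type, 1814 ± 66.7 (SD, n = 4) in Fezf2-/-, or 88.6% of wild type, and 2056 ± 96.1 (SD, n = 2) with the transgene. In bulk tissue fewer neurons that express a gene and less of its RNA per neuron cannot be told apart, for Ntsr1 as for the other 4 genes.

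Per kilobase of exon, wild type levels ran from Sla (2566 ± 177, SD, n = 3) over Rprm (2176 ± 49.4), Ntsr1 (522 ± 13.0) and Tcerg1l (319 ± 24.9) to Zfpm2 (85.2 ± 18.7). Between Sla and Rprm the wild type libraries did not overlap, whereas in Fezf2-/- the ranges of these neighbours did, from 1302 to 2044 for Sla and from 1252 to 1791 for Rprm. The other neighbours in the order were separate in every genotype. Taking the longest coding transcript in place of all exons left the order as it was, with Sla at 2781 and Zfpm2 at 93.3 in wild type.

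**Figure D2:**
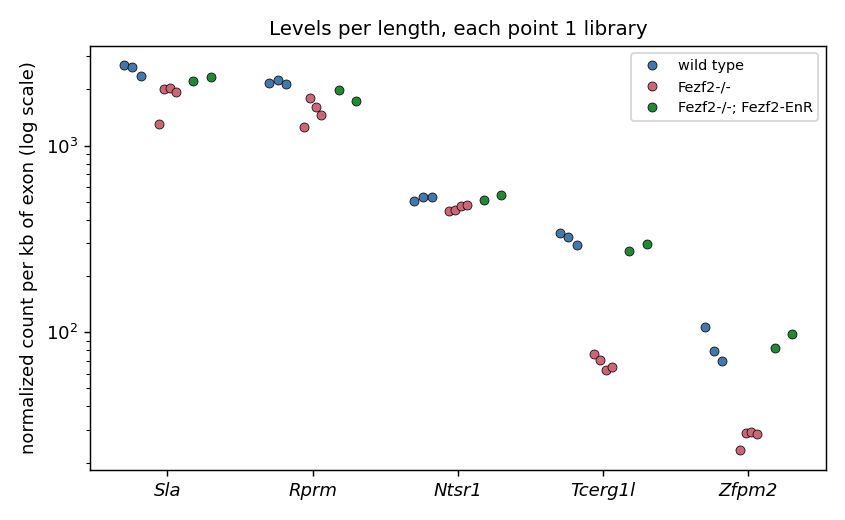
Normalized count per kilobase of exon (log axis) of the 5 genes, ordered by their wild type mean, with 1 point per library and the genotype in colour. Sla and Rprm sit highest, with ranges that overlap in Fezf2-/-, and Zfpm2 lowest in each genotype.

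The log2 difference between Fezf2-/- and wild type was -2.20 (SE 0.09) for Tcerg1l and -1.61 (SE 0.14) for Zfpm2. It was -0.52 (SE 0.11) for Rprm, -0.52 (SE 0.14) for Sla and -0.17 (SE 0.06) for Ntsr1. From the largest fall, Tcerg1l was in place 15 and Zfpm2 in place 25 of the 16197 genes, next to Rprm in place 254, Sla in place 256 and Ntsr1 in place 1803. The median over the 5 genes was -0.52, and over all genes it was 0.00. Tcerg1l and Zfpm2 were the 2 of 5 genes called as lower, beside 0.346% of all genes tested. All 5 genes had Fezf2-/- libraries entirely below wild type, as did 6.46% of all genes tested. The genes were picked with their levels in the genotypes known, so nothing is read from these counts or from those of the other 2 comparisons.

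With the transgene present, the log2 difference from Fezf2-/- was 2.05 (SE 0.11) for Tcerg1l and 1.72 (SE 0.16) for Zfpm2. It was 0.34 (SE 0.16) for Sla, 0.29 (SE 0.12) for Rprm and 0.18 (SE 0.06) for Ntsr1. These estimates share the Fezf2-/- libraries with the previous ones, so the 2 sets are not independent of each other. Again Tcerg1l and Zfpm2 were the 2 of 5 genes called as higher, beside 0.333% of all genes. For 4 of 5 genes, all but Rprm, both transgenic libraries lay above every Fezf2-/- library, as was the case for 12% of all genes. The smaller differences leaned on single libraries. Without the Fezf2-/- library bc204 the log2 difference was 0.19 for Sla, and without the Fezf2-/-; Fezf2-EnR library bc208 it was 0.19 for Rprm. Without both libraries that of Rprm was 0.10.

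Against wild type, Fezf2-/-; Fezf2-EnR showed log2 differences of 0.10 (SE 0.17) for Zfpm2, -0.16 (SE 0.11) for Tcerg1l, -0.23 (SE 0.13) for Rprm, -0.18 (SE 0.16) for Sla and 0.01 (SE 0.07) for Ntsr1. None of the 5 genes was called by limma at an adjusted p under 0.05, beside 0.117% of all genes. The number was also 0 at an unadjusted p under 0.05 and by DESeq2, to which that share does not apply. The counts over all genes for these 2 settings are in the last section. By edgeR it was 0 too, but no count over all genes is given for it, so nothing is read from it. Rprm and Sla had both transgenic libraries below all wild type libraries, as did 17.3% of all genes. The log2 difference of Rprm was -0.33 without bc208 and -0.13 without bc209, and that of Ntsr1 was 0.05 and -0.04. Because 2 libraries stand for this genotype, its spread is borrowed from the other groups, and a missed threshold does not show equal levels.

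**Figure D3:**
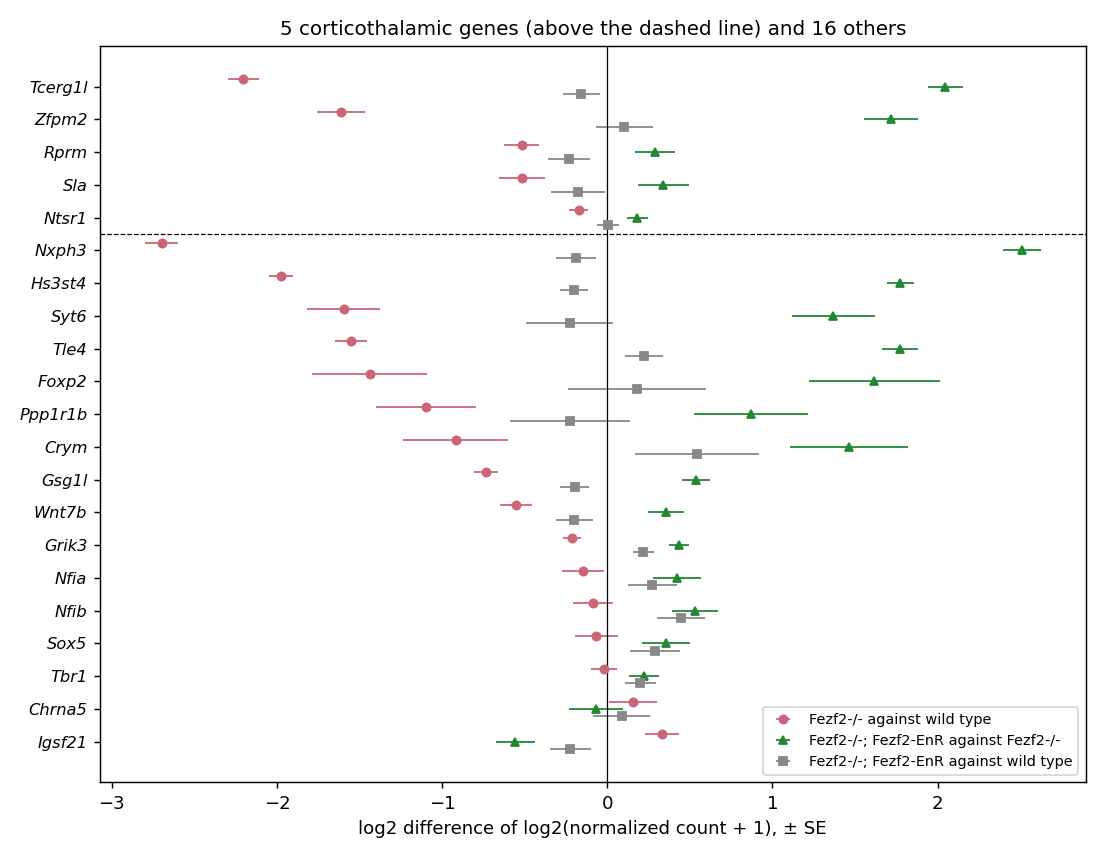
Log2 difference ± SE (limma, log2 of normalized count + 1) for the 5 genes above the dashed line and 16 other corticothalamic genes below it, in 3 comparisons. Tcerg1l and Zfpm2 lie far from 0 in the comparisons with Fezf2-/- and near 0 between Fezf2-/-; Fezf2-EnR and wild type, while Rprm, Sla and Ntsr1 lie at most 0.52 from 0 in each.

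Litters were spread unevenly over genotypes, so the genes were also compared within them. In litter m1, with 2 Fezf2-/- and 2 wild type libraries, the log2 difference was -2.31 for Tcerg1l, -1.66 for Zfpm2, -0.40 for Sla, -0.36 for Rprm and -0.17 for Ntsr1. In litter m3, the 1 transgenic library differed from the 2 Fezf2-/- libraries by 1.94 for Tcerg1l, 1.68 for Zfpm2, 0.55 for Rprm, 0.48 for Sla and 0.13 for Ntsr1. In litter m2, the 1 transgenic and the 1 wild type library differed by 0.49 for Zfpm2, -0.31 for Rprm, -0.03 for Sla, and 0.03 for both Tcerg1l and Ntsr1. For each of the 5 genes, the sign of the difference within litters m1 and m3 was that seen over all libraries. These libraries are part of that whole and the genes were chosen with their levels known, so nothing is read from this. In litter m2 the sign for Tcerg1l was the other one, 0.03 against -0.16 over all libraries.

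The comparison of litters within Fezf2-/- did not enter the choice of genes. Rprm averaged 1983 in the 2 m3 libraries and 2489 in the 2 m1 libraries, a log2 difference of -0.33 (SE 0.09, limma adjusted p = 0.107). Sla averaged 5167 and 6478, a log2 difference of -0.35 (SE 0.15, limma adjusted p = 0.265). For Zfpm2, Tcerg1l and Ntsr1 the log2 difference was -0.17, 0.08 and 0.01, with limma adjusted p of 0.601, 0.741 and 0.959. None of the 5 genes passed with limma, beside 1.43% of all genes called between the litters. At an unadjusted p under 0.05 there were 2 of the 5 (Rprm and Sla), beside 17.4% of all genes.

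The same Fezf2-/- library, bc204 of litter m3, was the lowest of its group for Zfpm2, Rprm, Sla and Ntsr1 and the highest for Tcerg1l. It also held the most RNA of striatal projection neurons, which lie under the cortex and are not cortical cells. The summed normalized count of 5 striatal genes (Adora2a, Drd2, Penk, Tac1 and Rgs9) was 1547 in bc204, between 539 and 610.2 in the other 3 Fezf2-/- libraries, 960 in bc208 and 343 in bc209 of Fezf2-/-; Fezf2-EnR, and between 472 and 508 in wild type. As a part of the sum, Rgs9 was between 297 and 346 in the other 3 Fezf2-/- libraries and between 260 and 275 in wild type. The ranges of Adora2a, Drd2, Penk and Tac1 overlapped between these libraries. The transgenic library bc208 was lower than bc209 for Zfpm2, Tcerg1l, Sla and Ntsr1 and higher for Rprm. The part of striatal tissue in these values was not tested. Without bc204, the Fezf2-/- mean was 183 for Zfpm2 (33.8% of wild type), 170 for Tcerg1l (20.8%), 2372 for Rprm (74.7%) and 1835 for Ntsr1 (89.7%). The sum of 8 neuronal genes was 131518 in bc204, 133659 in bc208 and 139655 in bc209. It was between 138770 and 142181 in the other Fezf2-/- libraries and between 139769 and 142613 in wild type. The paper names Slc17a7 as a glutamatergic gene, so the 8 do not stand for all neurons. Slc17a7 was between 2631 and 3945 in Fezf2-/- and between 2115 and 2385 in wild type. Neurod2 went the other way, between 5739 and 7434 in Fezf2-/- and between 7589 and 8372 in wild type. The ranges of the others overlapped. Gene by gene, bc204 was the lowest of the 9 libraries for 2 of the 8, Map2 and Neurod2, and bc208 for 1, Neurod6. The transgenic library bc209 was the lowest for the other 5, Tubb3, Snap25, Stmn2, Rbfox3 and Slc17a7.

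**Figure D4:**
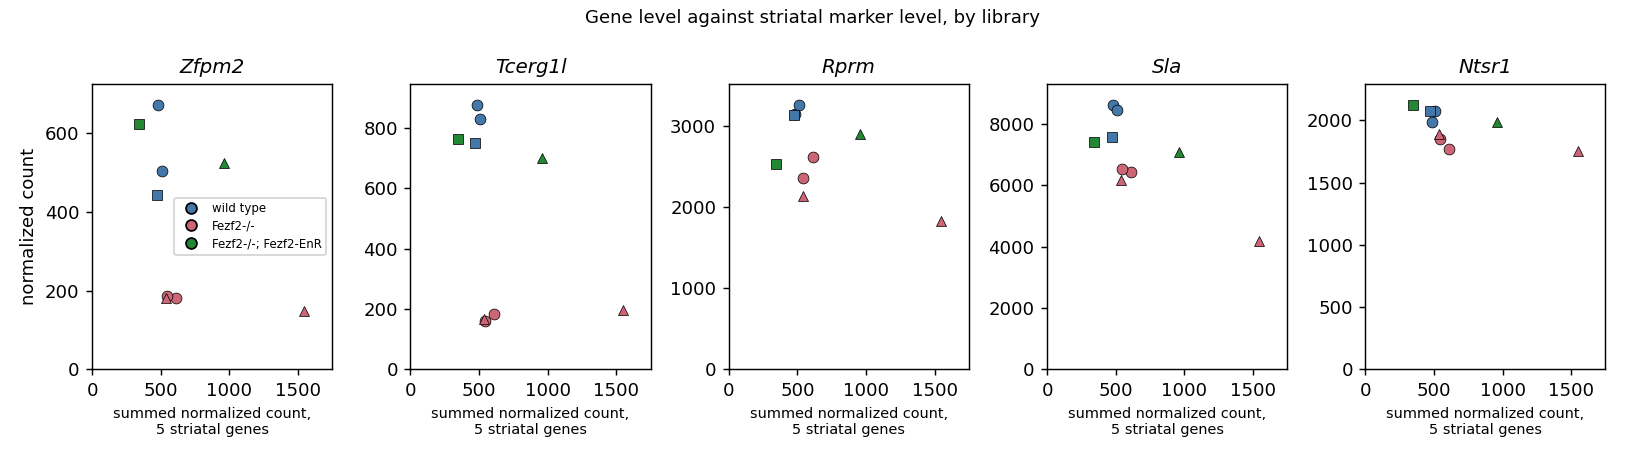
Normalized count of each of the 5 genes (linear axes from 0) against the summed normalized count of 5 striatal genes, with 1 point per library, colours for genotypes, and circles, squares and triangles for litters m1, m2 and m3. One Fezf2-/- library lies far to the right at 1547 and is the lowest of its group for 4 of the 5 genes. The other Fezf2-/- libraries have striatal sums between 539 and 610.2, against 472 to 508 in wild type, and lie below wild type in each panel. Of the striatal genes, only Rgs9 was above every wild type library in all of these. The part of striatal tissue in these values was not tested.

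Among 16 other corticothalamic genes, 6 fell in Fezf2-/- (limma, adjusted p under 0.05, all genes tested) and 0 rose, with a median log2 difference of -0.64. The falls were in Nxph3, a neurexophilin that binds neurexins (log2 difference -2.70, SE 0.10, adjusted p = 3.52e-07), Hs3st4, which modifies heparan sulfate (-1.98, SE 0.07, adjusted p = 3.52e-07), and Syt6, a synaptotagmin (-1.60, SE 0.22, adjusted p = 0.00593). The TLE-family corepressor Tle4 (-1.55, SE 0.10), Gsg1l, an AMPA receptor auxiliary subunit (-0.73, SE 0.07), and the secreted signal Wnt7b (-0.55, SE 0.10) also fell. The fall of Wnt7b was called in 4 of the 9 fits that left out 1 library (limma adjusted p up to 0.113), being lost without wild type bc201 or bc202 or without Fezf2-/- bc204, bc205 or bc207, whereas the other 5 were called in all 9. The list was drawn up with results of these samples known, and the study itself describes Wnt7b in them, so the direction is not independent evidence. Zfpm2 and Tcerg1l were thus in the range of the first 4 of these falls, and Rprm and Sla near that of Wnt7b.

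The other 10 genes of the list did not pass. Tbr1 and Sox5, transcription factors known from corticothalamic neurons, had log2 differences of -0.02 (SE 0.08) and -0.07 (SE 0.13). The nuclear factors Nfia (-0.15, SE 0.13) and Nfib (-0.09, SE 0.12) were also near 0, and so did the nicotinic receptor subunit Chrna5 (0.16, SE 0.14). Grik3, a kainate receptor subunit, was at -0.22 (SE 0.05), Crym, which binds thyroid hormone, at -0.92 (SE 0.32), and the adhesion gene Igsf21 at 0.33 (SE 0.10). Foxp2 was at -1.44 (SE 0.35, adjusted p = 0.123) and Ppp1r1b, which encodes DARPP-32, at -1.10 (SE 0.30, adjusted p = 0.183). Striatal neurons also express both genes. In bc204, the library with the highest striatal sum, Foxp2 was at 636 and Ppp1r1b at 858, against 161 to 276 and 272 to 431 in the other Fezf2-/- libraries. Without bc204 both fell, by 1.83 for Foxp2 (limma adjusted p = 0.000753) and by 1.41 for Ppp1r1b (limma adjusted p = 0.00762) on the log2 scale, and 7 of the 16 genes passed, 5 of the earlier 6 and these 2. The part of striatal tissue in these values was not tested.

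In Fezf2-/-; Fezf2-EnR against Fezf2-/-, 6 of the 16 genes rose and 0 fell (limma), with a median log2 difference of 0.53. They were Nxph3 (2.51, SE 0.11), Hs3st4 (1.77, SE 0.08), Tle4 (1.77, SE 0.11), Syt6 (1.37, SE 0.25), Gsg1l (0.54, SE 0.08) and Grik3 (0.44, SE 0.06). Wnt7b, which had fallen without Fezf2, was at 0.35 (SE 0.11, limma adjusted p = 0.167). With 1 library left out in turn, Nxph3, Hs3st4 and Tle4 were called in all 9 fits, Grik3 in 8, Gsg1l in 6 and Syt6 in 4. Without the transgenic library bc209 the count was 3 of 16, and without bc204 and bc208 it was 11 of 16, of which 1, Igsf21, was lower. Against wild type 0 of the 16 were called by limma and by edgeR, 2 by DESeq2 (Grik3 and Nfib, both higher) and 4 at an unadjusted p under 0.05. Without the transgenic library bc208 there were 2, Nfib higher and Igsf21 lower.

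Other lists give the surroundings of the 5 genes in Fezf2-/- against wild type. Of 6 tested subplate and layer 6b genes 3 fell, namely Cplx3 (-2.99, SE 0.29), Nxph4 (-1.45, SE 0.13) and Ctgf (-1.40, SE 0.14), and Nr4a2 rose (0.75, SE 0.13). The 3 falls were called in all 9 fits without 1 library and the rise in 5, being lost without any one of the wild type libraries or Fezf2-/- bc206. Of 14 subcerebral genes of layer 5, the neurons with which Tcerg1l had also been grouped, 3 fell, namely Adcyap1 (-0.81, SE 0.11), Bhlhe22 (-0.45, SE 0.09) and Ldb2 (-0.41, SE 0.08). Adcyap1 was called in all 9 fits without 1 library. Bhlhe22 and Ldb2 were called in 2, being lost when any 1 wild type or Fezf2-/- library was left out (limma adjusted p up to 0.214 and 0.166). The estimate for Tcerg1l, -2.20, lay beyond all 3. Of 5 thalamic genes 1 rose, the glutamate transporter Slc17a6 (0.59, SE 0.11), and this call too was lost without any 1 wild type or Fezf2-/- library (limma adjusted p up to 0.205). Together, 6 thalamic genes summed to between 1233 and 1274 in wild type, between 1544 and 1988 in Fezf2-/- and between 1190 and 1523 in Fezf2-/-; Fezf2-EnR. Slc17a6 was the largest part of the sum, between 673 and 784 in wild type and between 975 and 1296 in Fezf2-/-. Lhx9 was also higher in all Fezf2-/- libraries, but at 18.3 or less. The ranges of Tcf7l2, Lef1, Gbx2 and Rora overlapped between the 2 genotypes. The part of thalamic tissue in the values of the 5 genes was not tested. Lists of callosal, neuronal, microglial, T cell (Lck alone), striatal and erythroid genes had 0 of 37 genes called by limma, edgeR or DESeq2. At an unadjusted p under 0.05 the number was 9.

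Relatives and binding partners of the 5 genes were read from the same fit. Of 16 such genes 14 passed the filter on low values, and 0 were called by limma in any of the 3 comparisons. At an unadjusted p under 0.05 there were 2 in Fezf2-/- against wild type and 1 in each of the other comparisons, edgeR called 0 in each, and DESeq2 called 1, in Fezf2-/-; Fezf2-EnR against wild type. For Zfpm2, the related cofactor Zfpm1 had means of 229 in wild type and 234 in Fezf2-/-, and the GATA factor Gata2 had 21.6 and 26.8. Gata3, another factor that FOG proteins bind, was between 0 and 4.22 in all libraries, and Nr2f2, also a partner, was at 869 and 1008. For Tcerg1l, the related Prpf40b had a log2 difference of -0.01. For Rprm, the paralog Rprml was at 117 and 134.

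For Sla, the paralog Sla2 stayed between 0 and 2.19 in all libraries. The kinases and the ligase with which the adaptor works were at levels of 6966 in wild type and 6867 in Fezf2-/- for Fyn, 2515 and 2594 for Src, 131 and 122 for Lck, 74.5 and 81.9 for Syk, 31.1 and 25.4 for Zap70, and 1813 and 2194 for Cbl. For Ntsr1, the second receptor Ntsr2 was at 32.1 and 27.5 and the sorting receptor Sort1 at 5245 and 5186. Nts, the neurotensin precursor, was at 35.5, 25.3 and 22.1 in wild type, 99.4, 71.9, 52.1 and 119 in Fezf2-/-, and 113 and 13.1 in Fezf2-/-; Fezf2-EnR. All 4 Fezf2-/- libraries were above wild type for Nts, but its log2 difference of 1.56 (SE 0.57) did not pass (limma adjusted p = 0.342), and of the 2 transgenic libraries 1 lay within their range and 1 below wild type.

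Over the 9 libraries, the genes closest to each of the 5 were sought among 12958 genes with a mean of at least 50, by Pearson's r of log2(value + 1). All points share the genotype steps, so r is a description. Tcerg1l was closest to Hs3st4 (r = 0.996), Fezf2 (0.993) and Nxph3 (0.992), and Zfpm2 to Fezf2 (0.980), Zfp932 (0.978) and Ngfr (0.976). Ntsr1 was closest to Kif3c (0.970), Bhlhe22 (0.967) and Nfe2l3 (0.965). Rprm was closest to Tmem132d (0.959), Fam185a (0.922) and Pla2g4e (0.919), and Sla to Fam185a (0.980), Nfu1 (0.966) and Hspa12a (0.960). Fezf2 was thus among the 3 closest genes of Tcerg1l and Zfpm2 and not of the other 3, while Rprm and Sla had Fam185a in common. Among themselves, Zfpm2 and Tcerg1l (0.972) and Rprm and Sla (0.914) were the closest pairs.

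After the genotype means were taken out, the deviations of Rprm and Sla still went together (r = 0.770), as did those of Zfpm2 and Sla (0.675), whereas those of Zfpm2 and Tcerg1l did so less (0.205) and those of Tcerg1l and Ntsr1 ran opposite (-0.500). These 9 deviations include that of bc204, low for 4 genes and high for Tcerg1l. The closest genes by deviation were RP23-288B18.1 (0.989), Abcf1 (0.984) and Exosc10 (0.984) for Zfpm2, Cyr61 (0.965), Anp32b (0.945) and Gli2 (0.941) for Tcerg1l, Pla2g4e (0.978), Ldha (0.968) and RP24-170A20.3 (0.962) for Rprm, Aasdh (0.991), RP23-148L8.3 (0.990) and Extl1 (0.974) for Sla, and Exosc3 (0.981), Memo1 (0.978) and Atl3 (0.966) for Ntsr1. None of these genes was called in Fezf2-/- against wild type by limma, and Pla2g4e was the 1 gene near a member, Rprm, by both measures. The genes named were the highest of 12958 compared over 9 libraries. So wide a search over so few libraries gives high r without any link, so nothing is read from these values.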

How the data were processed

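RNA of 9 P0 mouse cortices was sequenced, in 3 wild type mice, 4 Fezf2-/- mice and 2 mice of the genotype Fezf2-/-; Fezf2-EnR, grouped by the labelled genotype. The authors deposited a normalized signal, read counts per gene divided by a size factor of the library and printed to 2 decimals. The submitters' processing notes name mm10, Bowtie, STAR and DESeq, and the paper names TopHat and Bowtie. The counting tool, annotation release and use of strand are not given in the sources used here, and the labels differ from the paper's methods on the sequencer and on the number of wild type mice, of which 3 were analysed.

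The test was limma 3.58.1 (R 4.3.3; lmFit, eBayes with a trend) on log2(value + 1), with 1 coefficient per genotype, all 9 libraries and no covariate, over the 16197 genes that averaged 10 or more. In the comparison of litters within Fezf2-/-, each genotype and litter had its own coefficient. Every nonzero value was a whole multiple of the value of 1 read within 0.1 (100% in each library), so whole reads were recovered and tested with edgeR 4.0.16 and DESeq2 1.42.0 as alternatives. In 2 libraries, bc204 and bc208, 1 read is worth 1.0043 and 0.9956, close to 1, so recovery is less certain there. Counting errors cover counting only. The replicates are separate mice. In simulated data for Fezf2-/- against wild type (16197 genes, 200 changed) limma called 200 of the changed genes and 10 others. The changed genes all moved by the same fold up or down, with a spread set beforehand and no litter effect. This recovery is therefore not the power of the real data. Recovery of differences as small as those of Rprm, Sla and Ntsr1 was not tested. A gene that was not called is therefore not shown to be unchanged.

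The genes and all lists were chosen with earlier results of these data known. Genes named are the 5 genes, Fezf2, the 3 most similar genes by each of 2 measures, all other corticothalamic genes and partners, and up to 3 called genes of each other list. The subplate gene that rose, any gene named for a call under 1 alternative and the levels of striatal genes were added after their values were seen. Gene positions are from GENCODE M21, which matched 24595 of the 24624 identifiers; Gata1, Gata4, Gata5, Gata6, Drd1 and Cd3 genes had no row under those names and were not analysed here, and 3 genes of the lists are not reported here and entered no list count or sum. Promoter sequences matched 3 of the 5 genes. Alternatives were pseudocounts of 0.1 and 10, filters at a mean of 1, of 50 and none, rescaling by TMM or by median ratios, fits of 2 genotypes at a time, a block for litter, the m1 litter by itself, leaving out each library, the count tests, an unadjusted threshold and, added after seeing the data, leaving out bc204 and bc208 together. Tables were made with Python 3.11.15 and pandas 2.3.3.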

Additional observations from a re-analysis of the deposited data

Results flagged for a closer look

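Among the 4 Fezf2-/- libraries, 4 of 25 values examined (the 5 genes, 16 other corticothalamic genes and 4 summed marker lists) had a library set apart from the other 3 by more than Dixon's 95% critical value for 4 samples, and chance alone sets apart about 1 in 20 groups. Zfpm2 was at a normalized count of 148 in bc204, with a gap of 0.860 of the range of the group. Sla was at 4167 in the same library, with a gap of 0.843. Tle4, a corepressor of the other list, was at 820 in bc206, with a gap of 0.925. The summed normalized count of 5 striatal genes was 1546.65 in bc204, with a gap of 0.929, and its part in the Zfpm2 and Sla values was not tested. Without bc204 the Fezf2-/- mean of Zfpm2 was 183 and that of Sla 6374.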

How the results depend on the processing

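Of 320 alternative estimates for the 5 genes, none reversed a called difference and 319 moved by less than the spread between replicates. The exception was Rprm in Fezf2-/-; Fezf2-EnR against Fezf2-/-, at 0.10 without bc204 and bc208. Many of the 320 estimates could not move. A difference of group means is the same under another filter or a factor common to all libraries. It also stays the same when libraries of the genotype not compared are left out. The count of 319 is therefore no measure of stability. With each library left out in turn, Zfpm2 and Tcerg1l were called in all 9 fits of both comparisons with Fezf2-/-, and the number of the 5 genes called in Fezf2-/- against wild type lay between 2 and 3, with Sla added without Fezf2-/- bc204 and Rprm added without Fezf2-/- bc205. It was 4 with DESeq2 and in litter m1 alone, where Rprm and Sla were added, and 5 at an unadjusted p under 0.05. At that threshold it was 4 in Fezf2-/-; Fezf2-EnR against Fezf2-/-. With DESeq2, in litter m1 alone and unadjusted, 315, 233 and 1752 of all 16197 genes were called in Fezf2-/- against wild type. Counts over all genes for the other settings follow below. The 5 genes were picked with their levels known, so nothing is read from their counts. Of the 16 other corticothalamic genes, the unadjusted threshold called 11, 15 and 4 in Fezf2-/- against wild type, in the transgene against Fezf2-/- and in the transgene against wild type. In the transgene against Fezf2-/- the count lay between 3 (without bc209) and 9 with 1 library left out and was 11 without bc204 and bc208, and against wild type it lay between 0 and 2, and was 2 with DESeq2 and without bc204 and bc208.

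Over all genes, 139 were called in Fezf2-/- against wild type, 221 with only the 2 groups, 233 in litter m1 alone, 315 with DESeq2, 1752 unadjusted and between 66 (without wild type bc201) and 217 (without the transgenic bc209) without 1 library. The transgene against Fezf2-/- gave 124, and 67 with only the 2 groups, 454 with DESeq2, 2741 unadjusted, 809 without bc204 and bc208 and between 21 (without bc209) and 1088 (without bc208) without 1 library. The transgene against wild type gave 19, and 10 with a mean of at least 50, 12 with only the 2 groups, 32 with litter as a block, 641 with DESeq2, 3118 unadjusted, 276 without bc204 and bc208 and between 8 (without bc209) and 491 (without bc208) without 1 library. The litters within Fezf2-/- gave 231 called genes, and 58 from the 4 Fezf2-/- libraries alone. Fewer samples enter the fits with 2 groups or 1 litter, and the cause of the other changes was not tested. A lone transgenic library is assumed to vary like the other groups. Replicate names pair no samples across genotypes. With litter, which the genotypes share in part, as a block, the 3 comparisons gave 125, 88 and 32 called genes, and Wnt7b, Bhlhe22, Ldb2, Nr4a2 and Slc17a6 were no longer called in Fezf2-/- against wild type. Depth left a counting error of up to 8.25% per library for the 5 genes, and no fit at lower depth was run.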
